A study of Canis lupus familiaris with 18 samples.

Results

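The mevalonate pathway was described in 18 canine primary osteosarcomas, malignant bone tumours whose cells deposit bone matrix, through HMGCS1, FDPS, FDFT1, SQLE, INSIG1, MVD and SC5D. An eighth gene, IDI1, is not listed in the platform annotation and was not analysed here. The members were all probe sets that the annotation gives to exactly 1 of these symbols, which came to 14 of 42924 probe sets other than controls, for 7 of 8 genes. The tumours came from dogs with a normal serum concentration of alkaline phosphatase (ALP; 9 tumours) or an increased one (9 tumours), and the labels name no drug, age, sex or breed and no normal tissue. The tissue was snap frozen at surgery, biopsy or necropsy, and which tumour came from which procedure is not given in the sources used here. RNA of each tumour was measured on its own Affymetrix canine array. Nothing in the labels ties a tumour of one group to a tumour of the other.

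The mevalonate pathway turns acetyl-CoA into isoprenoids and cholesterol. HMGCS1 acts near its start, MVD makes isopentenyl pyrophosphate, FDPS joins isoprene units into farnesyl pyrophosphate, FDFT1 makes squalene as the first step committed to sterols, SQLE oxidises squalene, and SC5D acts late on the way to cholesterol. INSIG1 is an endoplasmic reticulum protein that holds back the sterol sensor SCAP, and like the enzymes it is a known target of the transcription factor SREBP-2. Farnesyl pyrophosphate also feeds protein prenylation, and nitrogen-containing bisphosphonates, drugs given against bone resorption and bone pain, act by inhibiting FDPS, above all in osteoclasts.

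Levels below are log2(signal + 16), the deposited log2 value turned back to a linear signal, raised by 16 to damp noise of dim probe sets, and logged again. The level of 1 probe set is not set against that of another, since probes differ in their response. Where a gene has several probe sets they are called a, b and c from the highest to the lowest mean, and a stands for the gene unless another is named. All 14 member probe sets passed the filter on low values, a mean over all arrays of at least the 40th percentile (6.15), and the lowest of them, INSIG1 b, had a mean of 6.22. Array medians of the deposited values lay between 6.25 and 6.31. Of the osteoblast markers, the collagen gene COL1A2 lay between 14.59 and 15.09 and the matrix protein gene SPARC between 13.52 and 14.43 in every tumour. Others of that list spread widely: the bone sialoprotein gene IBSP spanned 4.85 to 14.21, ALPL 6.50 to 13.57 and BGLAP 6.29 to 12.41. In whole tumour tissue, fewer cells of a type and less RNA per cell cannot be told apart.

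The genes of the pathway differed between tumours to unlike degrees, SQLE and INSIG1 most of all. SQLE, the squalene epoxidase, spanned 6.99 to 11.36 at its probe set a, with an SD of 1.2 over 18 tumours and a 23.6-fold range of the deposited signal. Its probe sets b and c (SDs 1.25 and 1.14) followed it closely, with r of 0.992 and 0.971 against a. Normal ALP replicate 7 was the lowest tumour and increased ALP replicate 5 the highest at each of the 3. INSIG1 spanned 5.66 to 9.60 (SD 1.21, n = 18), a 22-fold range of signal, from increased ALP replicate 7 to normal ALP replicate 9. The SDs of these probe sets exceeded those of 97.3% (SQLE c) to 98.1% (SQLE b) of the 25754 probe sets tested, apart from the dimmer INSIG1 b, where the SD was 0.54.

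The enzymes upstream and at the branch point varied less. HMGCS1 had an SD of 0.52 and spanned 9.62 to 11.86, a 4.83-fold range of signal, with normal ALP replicate 2 alone at the top and normal ALP replicate 3 lowest. Its probe set b spanned an 11.5-fold range (SD 0.77), and a and b correlated at 0.833. FDPS, measured by a single _s_at probe set, whose probes can also match related transcripts, had the smallest SD of the 7 genes, 0.35, and a 2.71-fold range between 9.47 in increased ALP replicate 7 and 10.89 in increased ALP replicate 4. MVD, the diphosphomevalonate decarboxylase, was similarly narrow, between 7.60 and 8.87 (SD 0.39).

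Of the sterol enzymes beside SQLE, FDFT1 had an SD of 0.42 and spanned 7.82 to 9.35, with normal ALP replicate 7 far below the others and increased ALP replicate 4 highest. Its probe set b had an SD of 0.65 and spanned 6.69 to 9.03, with increased ALP replicate 3 lowest and increased ALP replicate 4 highest. SC5D, the sterol C5-desaturase, had an SD of 0.60 and spanned 6.41 to 8.49, with increased ALP replicate 6 lowest and normal ALP replicate 2 highest. Over the 14 member probe sets the median SD was 0.59, against 0.36 over all tested probe sets, and 11 of the 14 lay above the upper quartile of 0.51. These 14 include repeats of the same genes in the same tumours. At probe set a, FDPS, MVD and FDFT1 lay below that quartile. Their SDs exceeded those of 48.1%, 56.5% and 61.4% of tested probe sets, and that of FDPS was just below the median.

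The members varied together from tumour to tumour. Each gene was expressed in SDs from its own mean over the 18 tumours, and the average of the 7 is called the members' mean. Increased ALP replicate 7 stood lowest, at -1.42, with 0 of 7 genes above their mean, and normal ALP replicate 3 at -0.80 and increased ALP replicate 2 at -0.63 also had 0 of 7. At the other end, normal ALP replicate 6 at 1.15 and normal ALP replicate 5 at 1.0 had all 7 genes above their mean, and increased ALP replicate 4 at 1.0 had 6. The tumours did not move as one in every gene. Normal ALP replicate 2, with the highest HMGCS1 and SC5D, had 4 of 7 genes above their mean, with FDPS, FDFT1 and INSIG1 below. Normal ALP replicate 7, the lowest in SQLE and in FDFT1 a, had SC5D above its mean.

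**Figure D1:**
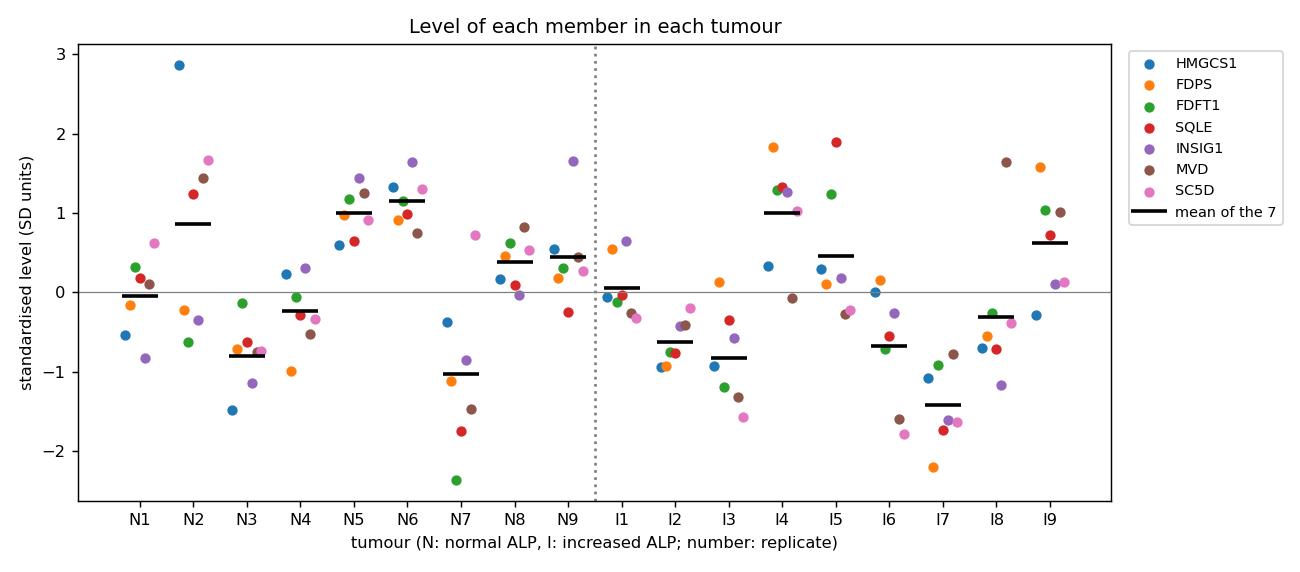
Standardised level (SD units, vertical axis) of the 7 members in each of the 18 tumours (horizontal axis, N for normal and I for increased ALP), one colour per gene, with the mean of the 7 as a black bar. The bars run from -1.42 in increased ALP replicate 7 to 1.15 in normal ALP replicate 6, and both groups hold tumours at both ends.

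Of the 21 pairs of members, all correlated positively over the 18 tumours, with Pearson's r between 0.298 and 0.787 and a median of 0.55. Over all 57421686 pairs of the 10717 named genes past the filter the median r was 0, 49.9% of pairs were above 0, and 5.23% had r over 0.5, against 13 of the 21 member pairs. By two-sided permutation test (100000 resamples, Benjamini-Hochberg over the 21 pairs), 13 pairs passed an adjusted p of 0.05 by Pearson's r and 15 by Spearman's rho. The genes were chosen with earlier results of these tumours known, so these counts describe this group of genes.

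By Pearson's r, the tightest pairs were FDFT1 with SQLE, and FDPS with SQLE, INSIG1 and FDFT1. By rank, HMGCS1 with INSIG1 (rho = 0.802) and with SQLE (rho = 0.738) stood above those pairs of FDPS. FDFT1 and SQLE, which act in succession, correlated at r = 0.787 (permutation p = 5e-05, adjusted p = 0.00105; rho = 0.825, p = 8e-05). FDPS, the bisphosphonate target, correlated with SQLE at r = 0.733 (permutation p = 0.00047, adjusted p = 0.00493; rho = 0.699, p = 0.00188), with INSIG1 at 0.715 (adjusted p = 0.00509; rho = 0.725) and with FDFT1 at 0.709 (adjusted p = 0.00509; rho = 0.711). Without the 2 tumours farthest from the median of the first gene, these 4 correlations were 0.691, 0.598, 0.594 and 0.680. On that measure HMGCS1 with INSIG1 (0.878) and SQLE with SC5D (0.834) were the highest of the 21 pairs. FDPS was thus measured high where FDFT1 a and SQLE were high, with a lower r of 0.498 at FDFT1 b. With the late enzyme SC5D, FDPS did not pass (r = 0.433, permutation p = 0.0726, adjusted p = 0.0953, rho = 0.395).

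HMGCS1, at the entry of the pathway, correlated with SC5D, near its end (r = 0.684, permutation p = 0.00132, adjusted p = 0.00554; rho = 0.674, p = 0.00299). It correlated with SQLE at 0.632 (adjusted p = 0.0124; rho = 0.738) and with INSIG1 at 0.548 (adjusted p = 0.0299; rho = 0.802). By rank INSIG1 and SQLE were closer to it than SC5D, and without the 2 tumours farthest from the HMGCS1 median INSIG1 stood at 0.878, SQLE at 0.630 and SC5D at 0.604. HMGCS1 with FDPS did not pass by Pearson's r (0.372, permutation p = 0.128, adjusted p = 0.142) but did by rank (rho = 0.544, p = 0.0214, adjusted p = 0.0326). The same held for HMGCS1 with FDFT1 (r = 0.298, permutation p = 0.228; rho = 0.591, p = 0.0115). Normal ALP replicate 2, highest in HMGCS1 and below the mean in FDPS and FDFT1, is 1 of the 2 tumours farthest from the HMGCS1 median. Without those 2 the correlations were 0.581 and 0.652.

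The r of MVD with the other members lay between 0.533 (INSIG1) and 0.913 (SQLE) within normal ALP. Within increased ALP it lay between 0.011 (INSIG1) and 0.612 (SC5D), a difference that was not tested. Over all 18 tumours, MVD passed with some members and not with others. It passed with SC5D (r = 0.626, permutation p = 0.0057, adjusted p = 0.0150; rho = 0.573, p = 0.0141), FDFT1 (r = 0.568, adjusted p = 0.0298; rho = 0.538) and HMGCS1 (r = 0.510, adjusted p = 0.0427), the last not by rank (rho = 0.486, adjusted p = 0.0558). That r was 0.349 without the 2 tumours farthest from the HMGCS1 median. MVD passed with SQLE by rank (rho = 0.540, adjusted p = 0.0326) but not by Pearson's r (0.498, permutation adjusted p = 0.0502). It passed by neither with FDPS (r = 0.399, adjusted p = 0.125; rho = 0.455) or INSIG1 (r = 0.328, adjusted p = 0.192; rho = 0.317). Of the remaining pairs with SC5D, FDPS (r = 0.433), FDFT1 (r = 0.392) and INSIG1 (permutation adjusted p = 0.0502) passed by neither measure. SQLE with SC5D passed (r = 0.539, permutation adjusted p = 0.0370, rho = 0.591). The pairs of FDFT1 depend on its probe set. At FDFT1 b, r was 0.678 with SC5D, 0.679 with MVD, 0.386 with HMGCS1, 0.643 with SQLE, 0.541 with INSIG1 and 0.498 with FDPS. These values at FDFT1 b were not tested.

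**Figure D2:**
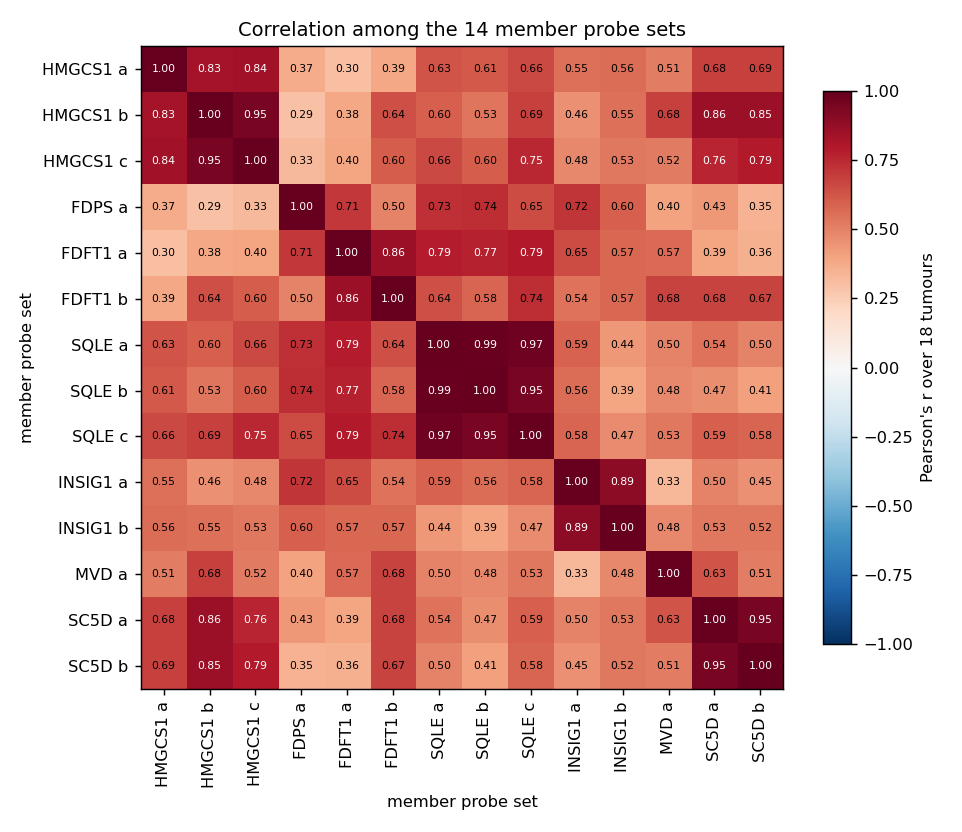
Pearson's r over 18 tumours for every pair of the 14 member probe sets, on both axes, from -1 (blue) to 1 (red). Probe sets of the same gene correlated at 0.833 or more, and the 82 pairs across genes lay between 0.294 and 0.860, all above 0.

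The co-variation was present within each ALP group. Among the 9 tumours with normal ALP the median r over the 21 pairs was 0.632 and among the 9 with increased ALP 0.692, and after subtracting each group's mean it was 0.580 over all 18. FDPS with FDFT1 had r = 0.816 with normal (exact permutation p = 0.00191) and 0.692 with increased ALP (exact permutation p = 0.0391). FDFT1 with SQLE had 0.690 (exact permutation p = 0.0454) and 0.891 (exact permutation p = 0.00205). Some pairs had values far apart, and the values within a group went as low as 0.047 with normal and 0.011 with increased ALP. FDFT1 with SC5D had r = 0.047 with normal (exact permutation p = 0.903) and 0.806 with increased ALP (exact permutation p = 0.0101), and HMGCS1 with FDFT1 had 0.137 (exact permutation p = 0.695) and 0.774 (exact permutation p = 0.0231). SQLE with MVD ran the other way, with r = 0.913 with normal ALP (exact permutation p = 0.000468) and 0.204 with increased ALP (exact permutation p = 0.602). These differences between the groups were not tested.

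Quality measures moved with the members, and their part in the co-variation was not tested beyond the values given here. The members' mean correlated at 0.588 with the interquartile range of the array, at -0.530 with the mean BioB spike-in signal, at -0.439 with the GAPDH and at -0.314 with the actin 3' to middle difference, both measures of RNA quality. After each gene was adjusted for the interquartile range, the median r over the 21 pairs was 0.417 and 7 pairs passed. MVD with SC5D then stood at 0.312, FDFT1 with MVD at 0.361 and FDFT1 with SC5D at -0.0003, while FDPS with FDFT1 stood at 0.717. After adjustment for BioB the median was 0.465 and 8 passed, and after the actin difference it was 0.524 and 14 passed. Without increased ALP replicates 3 and 6, the arrays of highest spike-in signal, the median was 0.536 and 10 passed. Leaving out increased ALP replicate 7, the tumour lowest in the members' mean, gave a median of 0.50 and 8 passing pairs.

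Other cell types moved with the members as well. Of 7 osteoclast markers, ACP5, CTSK, MMP9 and ATP6V0D2 were past the filter on low values, and CALCR was below it. All 4 had r over 0.5 with the members' mean, at 0.64, 0.56, 0.65 and 0.62, against 12.4% of the 10710 other named genes. Their summed signal ran from 10290 to 56525 with normal and from 9387 to 53403 with increased ALP. Adjusted for the osteoclast list, the members kept a median pairwise r of 0.432, and 3 of 21 pairs passed. Of 6 measured cell division genes of 9, 4 had r over 0.5 (summed signal 1347 to 10798 with normal and 3845 to 14252 with increased ALP), and adjustment for that list left a median of 0.470 and 7 passing pairs. Fibroblast markers ran the other way in 5 of 6, with the list mean at r = -0.565, FBLN1, a matrix glycoprotein, at -0.65 and the exception PDGFRA at 0.28. Their summed signal ran from 27291 to 76068 with normal and from 23098 to 84597 with increased ALP, and adjustment left 9 passing pairs. Of the 8 osteoblast markers measured, SPP1 at 0.73, IBSP at 0.65 and RUNX2 at 0.59 were over 0.5, while COL1A1 at -0.50, SPARC at -0.12 and COL1A2 at -0.04 were below 0, and adjustment left 11 passing pairs. Over all tumours, the fat cell, skeletal muscle, endothelial, neutrophil, and T and NK cell lists had 0 members over 0.5. Of 8 macrophage markers CD68 and CSF1R, at 0.56 each, were over it. MSR1 stood at 0.05 and the other 5 lay between -0.29 (CD163) and -0.13 (C1QA), with a list median of -0.13. MSR1 and those 5 lay between 0.21 (AIF1) and 0.43 (MSR1) within normal ALP. With increased ALP they lay between -0.69 (CD163) and -0.39 (MSR1). Skeletal muscle markers other than DES lay between -0.17 (TNNT1) and 0.36 (TNNC1) with normal ALP. With increased ALP they lay between 0.61 (MYL1) and 0.64 (MYH7). DES stood at -0.59 with normal and 0.25 with increased ALP. These differences between the groups were not tested.

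The rest of the sterol branch followed the members closely. Of 6 genes past the filter, 5 had r over 0.5 with the members' mean. These were MSMO1, the C4-methyl sterol oxidase, at 0.92, CYP51A1, the lanosterol demethylase, at 0.84, DHCR7, the last reductase of cholesterol synthesis, at 0.78, NSDHL at 0.74 and EBP at 0.69. TM7SF2, a sterol C14-reductase, stood at 0.29. The other probe sets of MSMO1 and NSDHL gave 0.83 and 0.72, both others of CYP51A1 gave 0.89 and 0.88 (that of NSDHL and the last of CYP51A1 were under the filter), and the other of EBP gave 0.46. MSMO1 spanned 8.12 to 10.75 (SD 0.66) and CYP51A1 8.13 to 10.43 (SD 0.71). LSS and HSD17B7 did not pass the filter on low values.

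The early steps did not all follow. ACAT2, the cytosolic thiolase that makes the substrate of HMGCS1, had r = 0.84 and 0.80 at its 2 probe sets. MVK and PMVK, the kinases that act before MVD, stood at -0.43 and -0.37. MVK varied little, between 6.87 and 7.28 (SD 0.10), and its other tested probe set stood at 0.23, so its sign rests on the probe set. All 3 probe sets of PMVK were below 0, between -0.22 and -0.48. GGPS1, which makes geranylgeranyl pyrophosphate from the product of FDPS, stood at 0.32.

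Among the regulators, SREBF2, which encodes SREBP-2, stood at r = 0.56 (0.32 at its other tested probe set). The sterol carrier gene STARD4 stood at 0.60 (0.49 and 0.51 at its other tested probe sets) and MBTPS2, a protease that releases SREBPs, at 0.58. INSIG2, the relative of INSIG1, stood at 0.33, MBTPS1, the other protease, at 0.28 and SREBF1 at -0.15. The other tested probe set of MBTPS1 gave 0.39 and that of SREBF1 -0.44. In the fatty acid list, the desaturases SCD at 0.71 and FADS1 at 0.66 were over 0.5, while fatty acid synthase (FASN) stood at 0.42 and ATP citrate lyase (ACLY) at -0.04. The other tested probe sets of FASN gave 0.59 and -0.19 and that of ACLY 0.31, so that both depend on the probe set.

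The branches that use farnesyl pyrophosphate for other ends showed smaller values. Of 5 prenyl transferase genes, 0 were over 0.5, from RABGGTA and FNTA at -0.08 to PGGT1B, the geranylgeranyl transferase subunit, at 0.39. Of 4 genes of the dolichol and ubiquinone branch, PDSS1 at 0.53 was over it. In the list of 5 efflux genes, MYLIP, a ubiquitin ligase, stood at -0.64, the transporters ABCG1 at -0.53 and ABCA1 at -0.30. The receptor NR1H2 stood at -0.40 and NR1H3, the related receptor, at 0.63. The other probe sets of MYLIP gave -0.66 and -0.60, and that of ABCG1 gave -0.25. Those of ABCA1, both under the filter, gave 0.10 and -0.14. Adjusted for the interquartile range of the array, MYLIP stood at -0.59, ABCG1 at -0.12 and ABCA1 at -0.54. In all, 13 of the 37 pathway genes past the filter were over 0.5, against 12.4% of all other named genes.

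**Figure D3:**
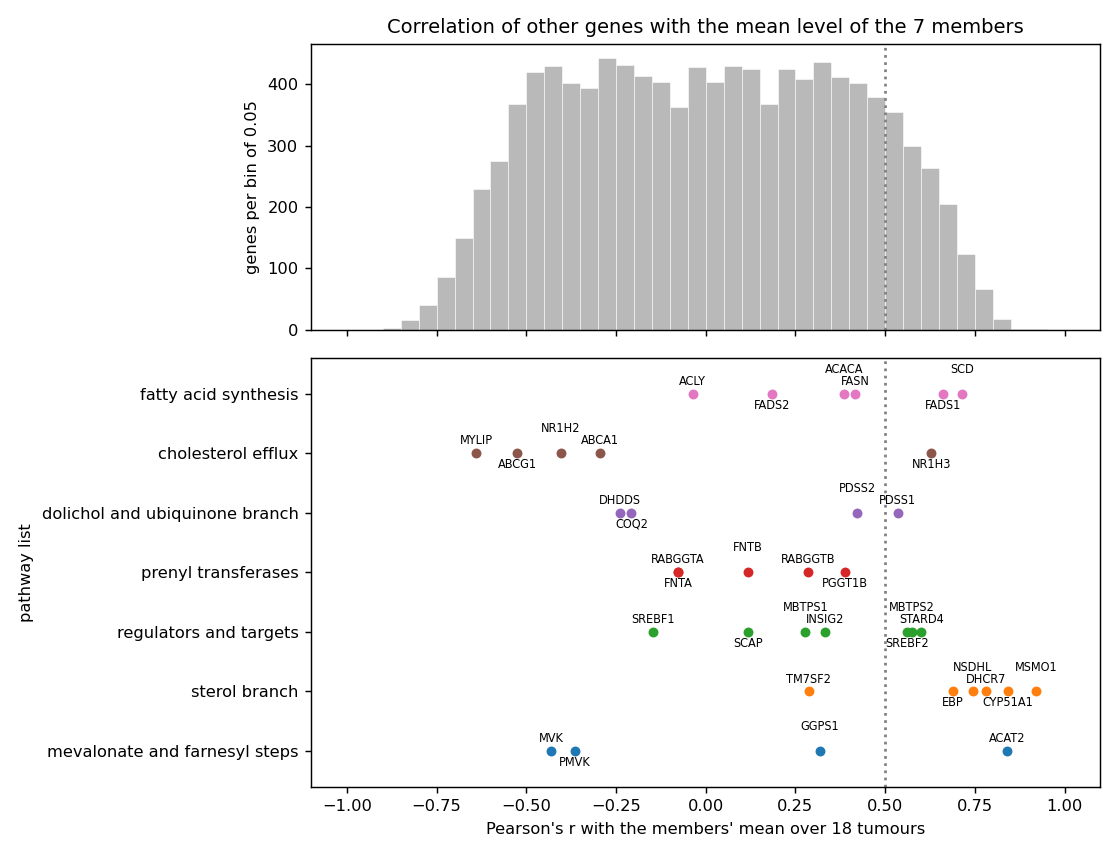
Upper part, the number of genes (vertical axis, bins of 0.05) by Pearson's r with the members' mean over 18 tumours (horizontal axis). Lower part, the 37 other pathway genes by list on the same axis, with r = 0.5 as a dotted line, which 5 of 6 sterol branch genes and 0 of 5 prenyl transferase genes exceed.

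Over all named genes the 10 most like the members' mean were MSMO1 (r = 0.92), SNRPB2, a spliceosome protein (0.89), SDHA, a subunit of succinate dehydrogenase (0.88), CYP51A1 (0.84), ACAT2 (0.84), NDUFS6, a subunit of respiratory complex I (0.83), PSMA7, a proteasome subunit (0.83), the cytokine TGFB1 (0.83), the fatty acid carrier FABP3 (0.83) and the mitochondrial ribosomal protein MRPL24 (0.83). Among the 10 were the sterol pathway genes MSMO1, CYP51A1 and ACAT2, beside SDHA, NDUFS6 and MRPL24, genes of mitochondrial proteins. Adjusted for the interquartile range of the array, MSMO1 stood at 0.88, PSMA7 at 0.87, CYP51A1 and SNRPB2 at 0.85 and MRPL24 at 0.84. NDUFS6 and SDHA then stood at 0.83, FABP3 at 0.78, TGFB1 at 0.77 and ACAT2 at 0.76. The 5 genes most opposed were NSMAF (-0.87), ARMC3 (-0.86), SPIRE2 (-0.85), PELI3 (-0.85) and ALG12 (-0.84), with SDs between 0.18 and 0.34. For FDPS alone the closest genes outside the members were ATP5IF1, an inhibitor of the mitochondrial ATP synthase (0.84), RRP1 (0.83), CKS1B, a cell cycle kinase subunit (0.83), MOB1B (0.82) and PSMA7 (0.81).

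The comparison of the serum ALP groups asked whether the tumours of dogs with increased ALP differed in this pathway. None of the 14 member probe sets was called in limma's moderated test (adjusted p between 0.642 and 0.997), where 0% of the 25754 tested probe sets were called. Of the members, 12 of 14 had a lower mean with increased ALP, against 48.5% of all tested probe sets, with a median difference (increased minus normal) of -0.34 against 0.01. Adjusted for the actin measure of RNA quality, which correlated at 0.667 with the group, 8 of 14 were lower with a median of -0.05, with the GAPDH difference 9 of 14 (median -0.18), and without increased ALP replicates 3 and 6 also 9 of 14 (median -0.18). It was 9 of 14 as well when either normal ALP replicate 6 or increased ALP replicate 7 was left out. An unadjusted p under 0.05 was found at both SC5D probe sets and at HMGCS1 b, 3 of the 14 and all lower, against 4.22% of all tested probe sets that were lower at that level. Probe sets of 1 gene share their tumours and are not separate evidence.

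SC5D had the smallest p. Its lowest, median and highest levels at probe set a were 7.03, 7.86 and 8.49 with normal ALP, while the other group had 6.41, 7.28 and 8.10. The groups overlapped, with 3 tumours of increased ALP below all of normal ALP and 8 of 9 below the mean of that group. Increased minus normal came to -0.67 ± 0.23 (SE, with a 95% interval from -1.15 to -0.18), or 0.631-fold (interval 0.452 to 0.880), with an exact two-sided permutation p of 0.0152 and an adjusted p of 0.657 in limma. Probe set b gave -0.64 ± 0.22 (SE, adjusted p = 0.642). At the 2 probe sets it correlated at -0.52 and -0.56 with the actin difference, itself at 0.667 with the group, and with that in the fit the differences were -0.47 and -0.41. SC5D correlated at -0.68 and -0.71 with the GAPDH difference, and with that in the fit the differences were -0.43 and -0.40. It also correlated at 0.745 and 0.70 with the interquartile range of the array, and without increased ALP replicates 3 and 6 the differences were -0.47 and -0.48. The part of these measures in the difference was not tested further.

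HMGCS1 was lower at its 3 probe sets without passing. At a the lowest, median and highest levels were 9.62, 10.50 and 11.86 with normal ALP and 9.83, 10.24 and 10.55 with increased ALP, so that 4 tumours of normal ALP lay above all those of increased ALP. Its difference came to -0.38 ± 0.22 (SE; 95% interval from -0.85 to 0.09; exact permutation p = 0.115, adjusted p = 0.844). At b it was -0.77 ± 0.30 (SE; exact permutation p = 0.0265, adjusted p = 0.722) and at c -0.44 ± 0.22 (SE; exact permutation p = 0.0708). With the actin difference in the fit, a stood at -0.38, b at -0.29 and c at -0.14, and with the GAPDH difference, with which a correlated at -0.504, they stood at -0.23, -0.46 and -0.23. Without normal ALP replicate 2 the differences at a, b and c were -0.22, -0.57 and -0.30.

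FDPS did not differ detectably. With normal ALP its lowest, median and highest levels were 9.85, 10.19 and 10.59, and with increased ALP 9.47, 10.29 and 10.89, so that the increased group lay on both sides of the normal one. The difference was 0.05 ± 0.17 (SE), and its 95% interval allowed a fold between 0.809 and 1.33 (exact permutation p = 0.765, adjusted p = 0.976). FDFT1 had 7.82, 8.94 and 9.30 with normal and 8.31, 8.70 and 9.35 with increased ALP, a difference of -0.04 ± 0.20 (SE), but probe set b gave -0.39 ± 0.28. FDFT1 b, unlike a, correlated at 0.820 with the interquartile range of the array (a at 0.526). After adjustment for the actin measure both turned, to 0.26 at a and 0.31 at b. The value at a was also just above 0 with quantile normalization (0.0022) and scaling to the 75th percentile (0.0061).

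SQLE and MVD overlapped over most of their ranges. SQLE had 6.99, 9.20 and 10.57 with normal and 7.0, 8.68 and 11.36 with increased ALP, a difference of -0.06 ± 0.54 (SE) whose interval allowed a fold between 0.437 and 2.11, so that a doubling could not be told from no change. Its sign at a, b and c turned with single arrays left out. INSIG1 had 6.21, 7.56 and 9.60 with normal and 5.66, 7.28 and 9.13 with increased ALP (difference -0.49 ± 0.53, SE), with 3 tumours of normal ALP above all of increased ALP and 2 of increased ALP below all of normal ALP. That difference was -0.27 without normal ALP replicate 9 and -0.71 without increased ALP replicate 4. MVD had 7.64, 8.39 and 8.79 and 7.60, 8.11 and 8.87 (difference -0.18 ± 0.18, SE). Leaving out increased ALP replicate 8 gave -0.27 and leaving out replicate 6 of that group gave -0.11, and it was 0.08 after adjustment for the actin measure.

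**Figure D4:**
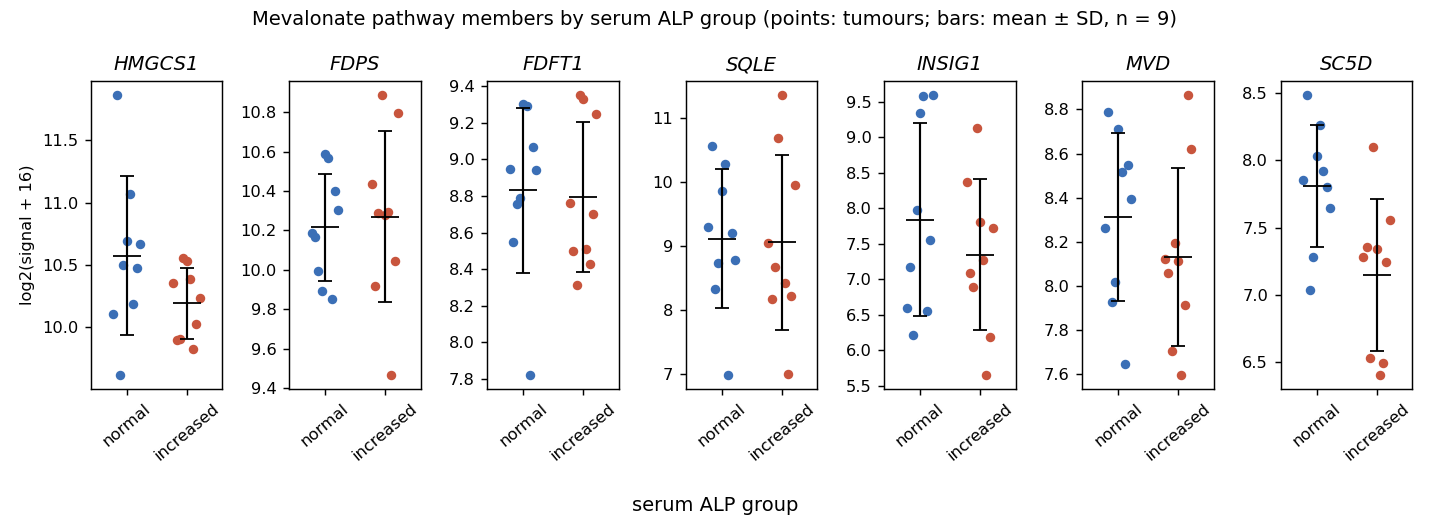
Level as log2(signal + 16) (vertical axes, each panel with its own range) of the 7 members at probe set a in the 9 tumours of each serum ALP group (horizontal axis), with points for tumours and bars for mean ± SD. The groups overlap in all 7 panels, with SC5D (means 7.81 and 7.15) the farthest apart of them.

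**Figure D5:**
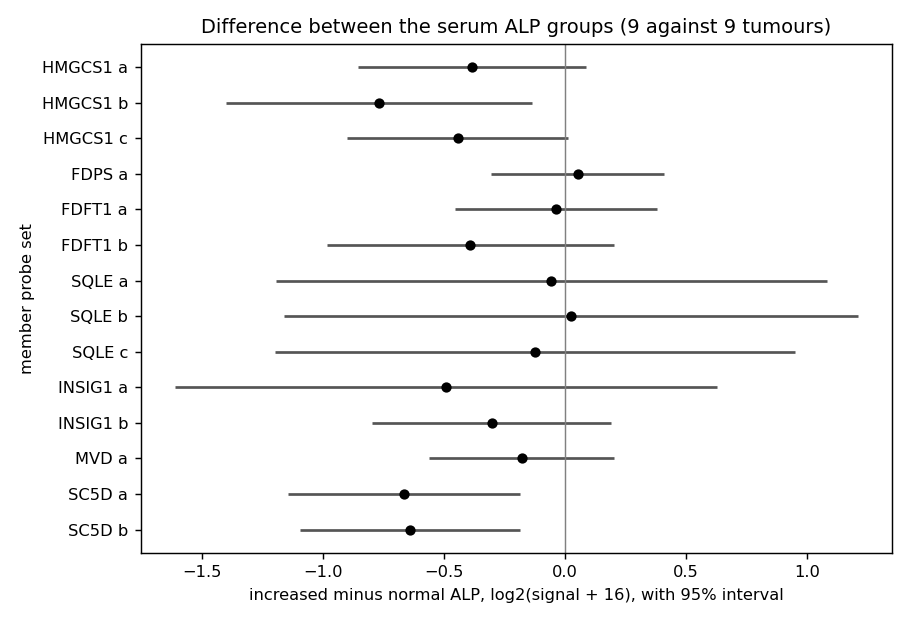
Difference of increased minus normal ALP (horizontal axis, log2(signal + 16)) with its 95% interval from limma for the 14 member probe sets (vertical axis). The intervals of HMGCS1 b and both SC5D probe sets lie below 0 and the others include 0, before any adjustment for the number of tests.

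Of the 37 other pathway genes, 0 passed, 19 were higher and 18 lower, with a median difference of 0.00. The 6 sterol branch genes were all lower (median -0.26), with MSMO1 at -0.35 ± 0.29 (SE), CYP51A1 at -0.25 ± 0.32 and DHCR7 at -0.27 ± 0.21. The 5 genes of the efflux list were all higher (median 0.09). Of the 37, 3 genes had an unadjusted p under 0.05 in limma, PGGT1B at -0.53 ± 0.14 (SE), MBTPS1 at -0.35 ± 0.15 and PMVK at 0.41 ± 0.15. None of these passed in limma (adjusted p between 0.608 and 0.760), where 6.14% of all tested probe sets had such an unadjusted p.

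In some marker lists all measured genes differed between the groups in one direction, without passing. Of 7 fat cell markers, CIDEC and LEP lay below the filter. The other 5 were all higher with increased ALP (median 0.59), with a summed signal of 362 to 3780 with normal and 1110 to 26481 with increased ALP. The 6 neutrophil markers (425 to 4114 and 502 to 9214), the 7 endothelial markers (2472 to 19593 and 3302 to 18986) and the 7 T and NK cell markers (403 to 1454 and 490 to 1739) were also all higher, and the 6 skeletal muscle markers (614 to 39379 and 563 to 11825) all lower. The other lists were mixed, with 5 higher and 3 lower for osteoblast and for macrophage markers, and 1 higher and 3 lower for osteoclast markers. Cell division genes had 2 higher and 4 lower, and fibroblast markers 1 higher and 5 lower. Over all tested probe sets 48.5% were lower. Markers of 1 list were measured in the same tumours and are not separate evidence. The part of these markers in the differences of the members was not tested.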

How the data were processed

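Total RNA (10 µg per array) was extracted with TRIzol and turned into biotinylated cRNA, per the labels. The deposited values are log2 signals, between 2.03 and 15.09. MAS5 is named, with neither version nor step, in the submitters' processing notes, so the normalization the authors used is unsettled, and genome build and detection calls are not given in the sources used here. No further normalization was applied. After 111 control probe sets were set aside and 16 was added to each signal, 25754 probe sets at or above the 40th percentile (6.15) were tested with limma 3.58.1 in R 4.3.3 (two-sided; lmFit, then eBayes with a trend on intensity), and p-values were adjusted by Benjamini-Hochberg with a threshold of 0.05. Names came from the platform annotation, for 29254 probe sets with 1 symbol, 439 with several and 13231 unlisted.

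Correlations used 1 probe set per gene, that of highest mean, with 100000 permutations (exact within groups), and Python 3.11.15 with NumPy 2.4.6. Named were all members, up to 6 genes per pathway list by size of r, the 10 genes most like and 5 most opposed to the members' mean, and the 5 most like FDPS. Members, lists and settings were chosen with earlier results of these data known. The limma and pair correlation scripts were tested on simulated data. Offsets, filters, scalings, weights, covariates, a replicate block and leaving out arrays were tried. No 2 arrays were duplicates (highest correlation 0.982). The labels speak of patients but do not state 1 tumour per dog, so p-values measure the spread between these samples, and 9 arrays per group limit the precision. Pairs with IDI1 and promoter motifs were planned but not analysed here.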

Additional observations from a re-analysis of the deposited data

Results flagged for a closer look

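In 28 sets of 9 tumours (14 member probe sets in each of 2 groups), 1 tumour stood apart from its group by Dixon's test, which chance gives in about 1 in 20 such sets. SC5D b in increased ALP replicate 4 had a level of 7.96, while the next highest tumour of increased ALP had 7.10. Leaving it out gave a difference of -0.77 at that probe set (adjusted p = 0.256 in limma).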

How the results depend on the processing

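Under the 31 alternatives limma called 0 probe sets in all, 0 members and 0 pathway genes, while 1582 probe sets had an unadjusted p under 0.05 in the reported fit. With the replicate block 0 were called and 1677 had such a p. The smallest adjusted p in limma was then 0.068, against 0.608 in the reported fit. Deviations of tumours with the same tissue number correlated between -0.164 and 0.270, and 0 of 18 tumours were closest to their own number. Such values cannot exclude a link between same-numbered tumours, which was not tested further. HMGCS1, INSIG1 and SC5D kept their sign at every probe set under every setting that tested them (a 60th percentile filter drops HMGCS1 c and INSIG1 b). Signs turned elsewhere, with no cause tested. FDFT1 a stood at 0.0022 with quantile normalization and 0.0061 with scaling to the 75th percentile, and SQLE b at -0.064 with array weights. With the actin difference in the fit FDPS stood at -0.025, FDFT1 a at 0.26, FDFT1 b at 0.31, SQLE a at 0.19, SQLE c at 0.45 and MVD at 0.080. With the GAPDH difference FDFT1 a stood at 0.013, SQLE a at 0.11 and SQLE c at 0.12. Without both arrays of high spike-in signal FDFT1 a stood at 0.073, SQLE a at 0.089 and SQLE c at 0.11. Leaving out single arrays gave -0.16 to 0.024 for FDFT1 a, -0.025 to 0.15 for FDPS, -0.35 to 0.20 for SQLE a, -0.28 to 0.30 for SQLE b and -0.40 to 0.061 for SQLE c.

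The count of passing pairs (13 of 21) lay between 8 and 15 without single arrays, lowest without increased ALP replicate 7. It was 7 after adjustment for the interquartile range, 8 for BioB, 3 for the osteoclast list and 7 for the cell division list, all chosen after seeing the data, and between 9 and 15 under the other alternatives, with a median r of at least 0.417 throughout. The median SD of the 7 members lay between 0.426 and 0.647.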
